A study of Mus musculus with 96 samples.

Results

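Liver RNA that had been fixed in buffered formalin, embedded in paraffin, isolated and then heated in tris-acetate EDTA (TAE) buffer was compared with RNA of the same livers kept flash frozen. The comparison used 24 of the 96 libraries of the series, 12 TAE libraries and 12 frozen libraries, chosen by the preservation label and paired by the animal code, so that each mouse gave 1 library to each side. All animals were male B6C3F1 mice, a hybrid laboratory strain, aged 10 to 11 weeks at dosing. In both sets 6 mice had received phenobarbital at 600 ppm in drinking water for 7 days and 6 control mice had received 0 ppm. Mixed pieces of several liver lobes had been frozen before they were divided, so the formalin portions were fixed from frozen tissue. The TAE portions spent 3 months in formalin, and the RNA isolated from their blocks was incubated in 1X TAE for 30 min at 70 °C. The frozen portions stayed at low temperature, and their RNA was isolated with another method, RNAzolRT followed by an RNeasy MinElute column. Fixation, embedding, isolation and heating therefore cannot be told apart in the comparison with frozen liver. The 12 libraries of the same 3-month formalin blocks without heating, called unheated formalin below, served as a second point of comparison.

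Formaldehyde adds hydroxymethyl groups to the bases of RNA and links RNA to neighbouring molecules through methylene bridges, and fixed RNA also breaks into short pieces. Heating in a mild buffer removes part of these adducts, which otherwise hinder reverse transcription. The liver is a tissue in which hepatocytes devote a large part of their mRNA to secreted plasma proteins, and in which phenobarbital activates the receptor CAR and through it drug-metabolising enzymes.

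Library totals ran from 9214474 to 12749828 gene counts in TAE libraries and from 14527636 to 18442730 in frozen libraries, with every TAE total below every frozen one. Levels are given as CPM, the counts of a gene scaled to the size of its library, after TMM scaling, which sets the bulk of genes equal between libraries, and folds come from edgeR's quasi-likelihood test with the animal as a block. Hepatocyte markers were abundant in both sets, and Alb (serum albumin) had 11658, 19461 and 31180 CPM as lowest, median and highest value in TAE libraries, against 28026, 47499 and 67136 CPM in frozen libraries. After thinning every library to 9214474 counts, 19353 ± 327 genes had a count in TAE libraries and 19036 ± 212 in frozen libraries (SD, n = 12 each). The number was higher in the TAE library of 11 of 12 mice (exact two-sided sign-flip permutation test, p = 0.00342).

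In TAE libraries short noncoding RNAs, mitochondrially encoded RNAs, immediate early mRNAs and genes with long 3′ untranslated regions stood higher than in frozen liver, while plasma protein, histone, drug-metabolism and nuclear-encoded respiratory chain mRNAs stood lower. Of 14603 genes tested, 5251 were higher (36%) and 4582 lower (31.4%) at an adjusted p under 0.05. With a change of at least 2-fold as a further condition, 357 were higher (2.44%) and 364 lower (2.49%). The lowest TAE library lay above the highest frozen library for 742 genes (5.08%), and the highest TAE library below the lowest frozen one for 917 genes (6.28%). The median log2 fold change of all tested genes was 0.03, and it was 0.26 when libraries were scaled by their totals alone, which gave 8089 higher and 2475 lower calls. Statements on gene groups below are thus relative to the bulk of genes, and groups whose median changes sign with the scaling are named as such.

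**Figure D1:**
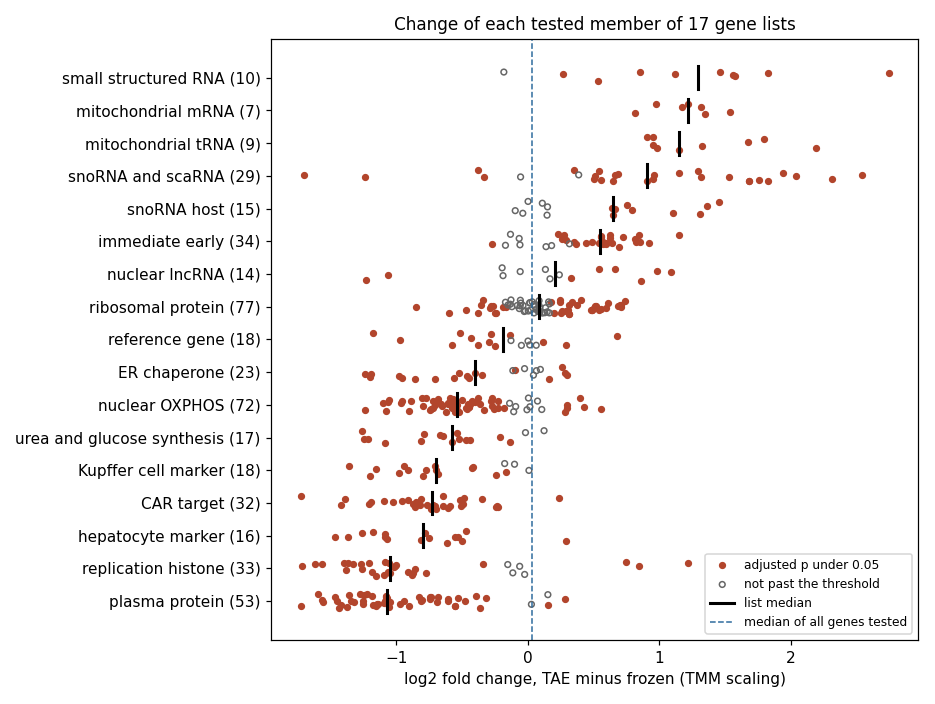
Each point is 1 tested gene, placed by its log2 fold change of TAE over frozen libraries (horizontal axis) in 17 gene lists (rows, number of tested members in brackets). Small structured RNAs sit highest with a median of 1.29 and plasma proteins lowest with a median of -1.08, against 0.03 for all tested genes (dashed line).

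Short noncoding RNAs were 7 of the 12 largest rises by the naming rule. The 3 sequences that follow show 2 RNAs that rose and the 1 that fell furthest among the snoRNAs listed by gene symbol. They are GRCm38 transcripts of GENCODE M21, written 5′ to 3′ as DNA. Capitals mark the final 4 T of the Y RNA, the ACA that lies 3 bases before the end of the H/ACA snoRNA, and the first TGATGA (C box) and the last CTGA (D box) of the C/D snoRNA.

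Rny3: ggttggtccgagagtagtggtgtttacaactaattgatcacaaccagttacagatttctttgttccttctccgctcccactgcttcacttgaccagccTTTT
Snora21: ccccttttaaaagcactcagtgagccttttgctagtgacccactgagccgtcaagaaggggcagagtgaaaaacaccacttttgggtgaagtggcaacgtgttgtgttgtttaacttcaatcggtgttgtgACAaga
Snord17: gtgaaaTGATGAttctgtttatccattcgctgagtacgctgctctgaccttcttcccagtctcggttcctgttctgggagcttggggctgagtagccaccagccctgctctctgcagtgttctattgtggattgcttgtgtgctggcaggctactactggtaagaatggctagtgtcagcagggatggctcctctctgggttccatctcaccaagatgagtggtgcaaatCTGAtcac

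Rny3 lies at chr6:47781624-47781725 on the plus strand and is 102 bases long. Snora21 lies at chr11:97781639-97781775 on the minus strand and is 137 bases long, and Snord17 lies at chr2:144265979-144266216 on the minus strand with 238 bases. Searched on the RNA strand alone, TGATGA and CTGA occurred together in 25.2% of the 1507 annotated snoRNA transcripts, an ACA 3 bases from the end in 18.3% of them, and a final TTTT in 2.83% of 566 transcripts of the miscellaneous RNA class. The RNA that fell was the longest of the 3, and a link between length and change among short RNAs was not tested.

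Snord13, which guides acetylation of 18S ribosomal RNA, had 4.69, 8.16 and 15.4 CPM (lowest, median, highest) in TAE libraries, against 1.15, 2.42 and 4 CPM in frozen libraries. The ranges did not overlap, and the log2 fold change was 1.94 ± 0.133 (SE, edgeR adjusted p = 1.3e-11). Snora21, a guide for pseudouridylation of ribosomal RNA, had 4.19, 8.44 and 11.1 CPM in TAE libraries, against 0.712, 1.68 and 2.34 CPM in frozen libraries. Its log2 fold change was 2.31 ± 0.126 (SE, edgeR adjusted p = 2.5e-13), with all 12 mice higher. Snord17 went the other way, with 42.6, 56 and 115 CPM in TAE libraries, against 168, 202 and 254 CPM in frozen libraries, a log2 fold change of -1.70 ± 0.09 (SE, edgeR adjusted p = 1.5e-13) in 12 of 12 mice. Of 29 snoRNAs and small Cajal body RNAs tested in a list made by gene symbol, 23 were called higher and 4 lower, with a median log2 fold change of 0.91. The annotation classes are larger. Of 74 snoRNAs tested by class, 59 were higher and 6 lower, and all 12 small Cajal body RNAs were higher. Scarna17 (2.54) and Scarna13 (1.32), which guide modification of spliceosomal RNAs, were among the higher ones. Snora73b had a log2 fold change of -0.06 (edgeR adjusted p = 0.55) and Snora33 one of 0.39 (edgeR adjusted p = 0.16), and neither passed the threshold. As a share of all gene counts the list made by symbol held 0.0666% ± 0.0122 in TAE libraries and 0.058% ± 0.00829 in frozen libraries (SD, n = 12 each), a difference that did not pass the exact sign-flip permutation test (adjusted p = 0.101, higher in 8 of 12 mice).

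Among 10 small structured RNAs outside these classes 9 were higher and none lower, with a median of 1.29. Vaultrc5, the vault RNA, had 128, 301 and 783 CPM in TAE libraries, against 31.7, 45.1 and 64.8 CPM in frozen libraries, and with a log2 fold change of 2.75 ± 0.14 (SE, edgeR adjusted p = 8.4e-14) it had the largest rise among the genes that the naming rule admitted. Rny3, a Y RNA bound by the Ro60 protein, had 17.2, 57.2 and 145 CPM in TAE libraries, against 8.55, 18.5 and 32 CPM in frozen libraries. Its ranges overlapped although all 12 mice were higher (log2 fold change 1.56 ± 0.129 SE, edgeR adjusted p = 3.4e-10). Rnu11, the U11 RNA of the minor spliceosome, was higher with a log2 fold change of 1.82. Rpph1, the RNA subunit of RNase P, had a log2 fold change of 0.85 and non-overlapping ranges, and Rn7sk, which holds the elongation factor P-TEFb inactive, one of 0.27. The call of Rn7sk is lost with DESeq2 (0.25) and in phenobarbital mice alone (0.20). Rmrp, the RNA subunit of RNase MRP, had a log2 fold change of -0.18 and did not pass (edgeR adjusted p = 0.056). It carries 2 gene identifiers in the annotation, so its count is uncertain.

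Mitochondrially encoded RNA held more of the TAE libraries. All 7 tested mitochondrial mRNAs were called higher, with a median log2 fold change of 1.21, and all 9 tested mitochondrial tRNAs with a median of 1.15. The count matrix has rows for 13 such mRNAs and 22 such tRNAs, and the others had too few counts to pass the filter. The share of mitochondrial mRNA below therefore rests mainly on the tested ones. Mitochondrial mRNAs took 3.85%, 6.57% and 8.88% of gene counts (lowest, median, highest) in TAE libraries, against 2.03%, 2.44% and 3.3% in frozen libraries. The ranges did not overlap, and the difference of 3.82 percentage points passed the exact sign-flip permutation test with adjusted p = 0.000879, in 12 of 12 mice. The unadjusted p of 0.000488 is the smallest that 12 pairs can give. Of 9 classes tested this way 7 passed. Ribosomal protein mRNAs held 0.866% ± 0.205 of gene counts in TAE libraries and 0.666% ± 0.0648 in frozen libraries, and the 10 most abundant genes 14.3% ± 1.81 in TAE libraries and 16% ± 1.06 in frozen libraries (SD, n = 12 each). Nuclear long noncoding RNAs did not pass (exact sign-flip permutation test, adjusted p = 0.184).

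mt-Nd2, a subunit of respiratory complex I, had 2740, 5826 and 7578 CPM in TAE libraries, against 1561, 1838 and 2014 CPM in frozen libraries, a log2 fold change of 1.54 ± 0.086 (SE, edgeR adjusted p = 4e-13). The other named members were mt-Nd5 (1.35), mt-Nd1 (1.32), mt-Cytb (1.21) of complex III and mt-Co1 (0.82) of complex IV. All 12 mice were higher for each of the 5, and the ranges overlapped for mt-Co1 but not for the other 4. Of the tRNAs, mt-Tp (2.19), mt-Tm (1.79) and mt-Tw (1.32), which carry proline, methionine and tryptophan, had the smallest p-values. Mitochondrial ribosomal RNA was not analysed here.

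Nuclear genes of oxidative phosphorylation, whose products join the mitochondrially encoded ones in the same complexes, went the other way. Of 72 tested, 58 were lower and 6 higher, the median was -0.54, and in 28 the ranges did not overlap. Ndufv1, a catalytic subunit of complex I, had 43.5, 58 and 73.7 CPM in TAE libraries, against 114, 138 and 159 CPM in frozen libraries (log2 fold change -1.24 ± 0.046 SE, edgeR adjusted p = 5.6e-16). Uqcrc1 of complex III (-1.11) and Ndufa9 of complex I (-0.96) were also lower, while Uqcrh (-0.11, edgeR adjusted p = 0.13) and Cox8a (-0.01, edgeR adjusted p = 0.95) did not pass.

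**Figure D2:**
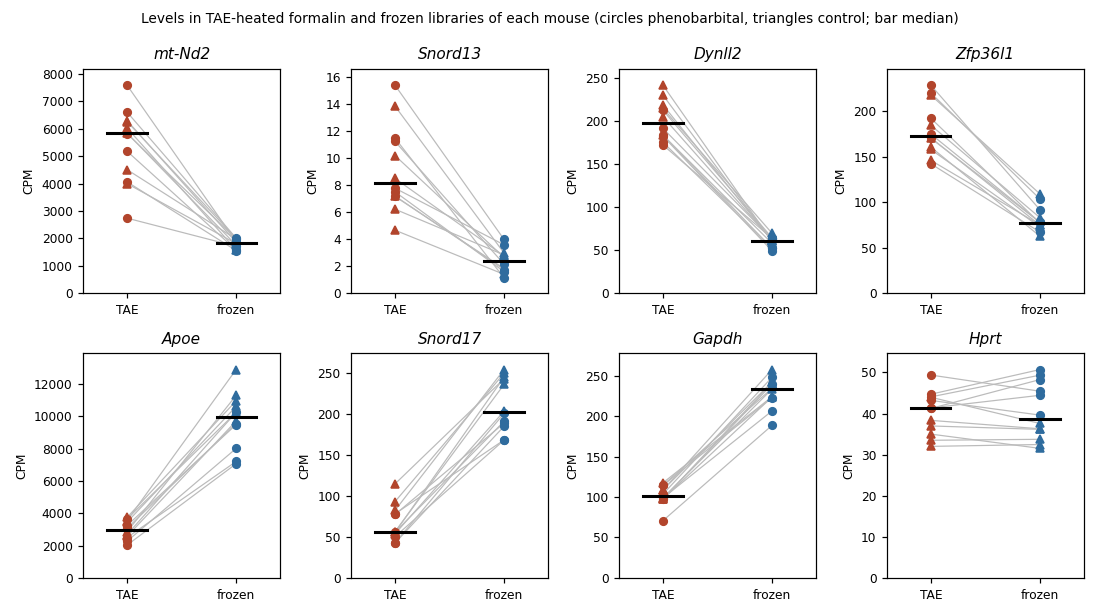
CPM of 8 genes in the TAE library (left) and the frozen library (right) of each mouse, joined by a line, with the median as a bar. mt-Nd2, Snord13, Dynll2 and Zfp36l1 stand higher in TAE libraries, Apoe, Snord17 and Gapdh lower, and Hprt overlaps, with 32 to 49.4 CPM in TAE libraries and 31.5 to 50.7 CPM in frozen libraries.

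The secreted proteins of the hepatocyte had the lowest median of the lists tested in the main fit, closely followed by replication histones (-1.05). The histone list was the lower of the 2 after thinning, with the deposited log2 values, in phenobarbital mice alone, and with mouse 75C or 80B left out. Of 53 tested plasma protein genes, 49 were lower and 2 higher, 29 of them lower by at least 2-fold, with a median of -1.08. Together they took 11.7%, 14.5% and 17.1% of gene counts (lowest, median, highest) in TAE libraries, against 20.4%, 23.5% and 26.1% in frozen libraries. The ranges did not overlap, and the mean difference was -9.34 percentage points in 12 of 12 mice (exact sign-flip permutation test, adjusted p = 0.000879).

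Apoe, a ligand by which lipoproteins are taken up, had 2028, 2962 and 3742 CPM in TAE libraries, against 7064, 9977 and 12897 CPM in frozen libraries. Its log2 fold change of -1.73 ± 0.052 (SE, edgeR adjusted p = 6.1e-17) was the largest fall by the naming rule. Ambp (-1.60), the precursor of alpha-1-microglobulin and bikunin, Vtn (-1.57), vitronectin, Kng1 (-1.56), kininogen, Apoa1 (-1.47), the main protein of high-density lipoprotein, and Apom (-1.43) were lower without overlap. Alb was lower with a log2 fold change of -1.08 ± 0.055 (SE, edgeR adjusted p = 9.2e-14) in 12 of 12 mice, though its ranges overlapped. F9, coagulation factor IX, had 218, 248 and 279 CPM in TAE libraries and 218, 246 and 261 CPM in frozen libraries and did not pass (0.03, edgeR adjusted p = 0.5). Apoc2 did not pass either (0.15, edgeR adjusted p = 0.47). Beyond the list, Rarres2 (-1.60), which encodes the secreted protein chemerin, the hepatocyte keratins Krt8 (-1.49) and Krt18 (-1.47), the actin-severing gelsolin Gsn (-1.45), the enolase copy Eno1b (-1.68) and the major urinary protein Mup7 (-1.51) completed the 12 largest falls. Mup7 and Eno1b have near-identical relatives, so their counts are uncertain.

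**Figure D3:**
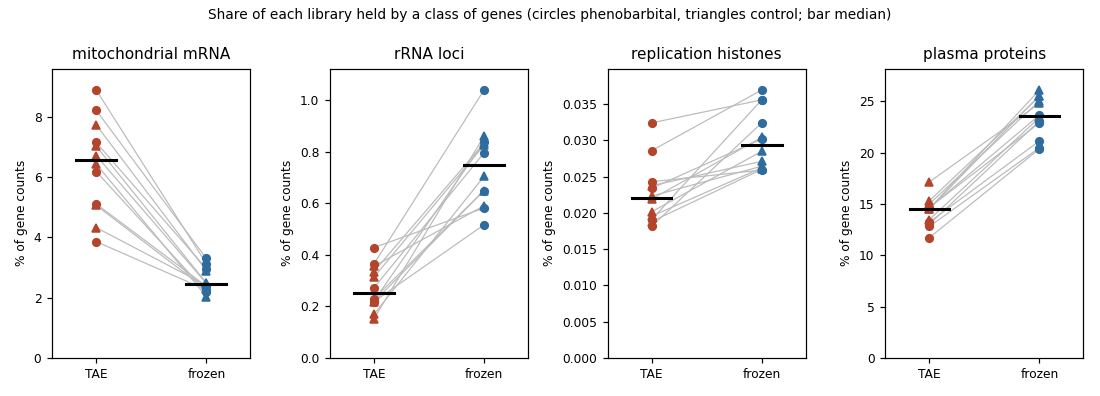
Share of gene counts in the TAE library (left) and the frozen library (right) of each mouse for 4 classes, with the median as a bar. The mitochondrial mRNA share is higher in all 12 TAE libraries, and the shares of rRNA loci, replication histones and plasma proteins are lower in all 12.

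Urea cycle, glucose synthesis and fatty acid oxidation genes were mostly lower as well, while sterol and lipid synthesis was mixed. Of 17 urea cycle and glucose synthesis genes 15 were lower and none higher (median -0.58), with Ass1 (-1.26) and Asl (-1.25), successive enzymes of the urea cycle, and Fbp1 (-1.21), fructose-bisphosphatase, at the head. Glul, glutamine synthetase (-0.02, edgeR adjusted p = 0.74), and Ppargc1a, a coactivator of fasting metabolism (0.12, edgeR adjusted p = 0.064), did not pass. Fatty acid oxidation had 23 of 29 genes lower and 1 higher (median -0.48). Of 23 chaperones of the endoplasmic reticulum 14 were lower and 4 higher (median -0.40), among them Hspa5 (-1.24), the main ER chaperone BiP, Pdia4 (-1.20), a protein disulfide isomerase, and Calr (-1.19), calreticulin. With library totals 13 of the chaperones were lower and 9 higher. The ER stress factor Xbp1 (0.04, edgeR adjusted p = 0.27) and the degradation adaptor Sel1l (-0.03, edgeR adjusted p = 0.52) did not pass. Sterol and lipid synthesis had 16 of 27 lower and 9 higher, with a median of -0.17 that turned to 0.07 with library totals, under which 9 were lower and 11 higher.

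Most tested markers of hepatocytes, Kupffer cells, endothelial cells and stellate cells were lower. Of 16 hepatocyte markers 15 were lower and 1 higher (median -0.80), with Hpd (-1.37) of tyrosine breakdown and Ttr (-1.18), transthyretin, beside Ass1. Of 18 Kupffer cell markers 15 were lower and none higher (median -0.70). Clec4f, a receptor specific to these macrophages, had 29.1, 52.3 and 93.3 CPM in TAE libraries, against 90.8, 123 and 193 CPM in frozen libraries (log2 fold change -1.16 ± 0.052 SE, edgeR adjusted p = 8.1e-15). C1qa (-1.36), a chain of complement C1q, and Fcna (-1.20), ficolin A, were also lower, and Slc40a1, the iron exporter (0.01, edgeR adjusted p = 0.89), and Cybb, an NADPH oxidase subunit (-0.10, edgeR adjusted p = 0.091), did not pass. Endothelial markers had 13 of 20 lower and 4 higher (median -0.35), with Stab1 (-0.62) and Stab2 (-0.57), scavenger receptors of sinusoids, and F8 (-0.63), coagulation factor VIII, lower, while Ptprb (-0.01, edgeR adjusted p = 0.89) and Dnase1l3 (0.10, edgeR adjusted p = 0.09) did not pass. Stellate cell and fibroblast markers had 11 of 20 lower and 4 higher (median -0.33). With library totals 10 endothelial markers were lower and 6 higher, and 9 stellate and fibroblast markers lower and 7 higher. In whole tissue, fewer cells of a type and less RNA per cell cannot be told apart, nor either from effects of fixation, embedding, isolation and heating. Both sides were portions of the same mixed liver pieces.

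Replication-dependent histone mRNAs, which end in a stem-loop and mostly lack a poly(A) tail, were lower in 26 of 33 genes and higher in 3, with 20 lower by at least 2-fold and a median of -1.05. Hist1h1e, a linker histone, had 18.5, 22.3 and 26.2 CPM in TAE libraries, against 43.7, 49.6 and 71.6 CPM in frozen libraries (log2 fold change -1.21 ± 0.06 SE, edgeR adjusted p = 5.1e-14). Hist1h1d (-1.40) and Hist1h4h (-1.27) were lower as well, while Hist1h1c (-0.11, edgeR adjusted p = 0.087) and Hist2h4 (-0.15, edgeR adjusted p = 0.11) did not pass. Members of this family are close in sequence, and reads of copies may be split between them. Cell cycle genes had 16 of 28 lower and 1 higher (median -0.50).

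Ribosomal RNA loci split. Gm26917, a locus that collects reads of the ribosomal RNA repeat, had 961, 1474 and 2150 CPM in TAE libraries, against 5442, 7628 and 10624 CPM in frozen libraries, a log2 fold change of -2.37 ± 0.114 (SE, edgeR adjusted p = 3e-14). Gm42418 (1.17) and Lars2 (1.16), which collect such reads too, were higher, so the loci gave no common direction. The loci of this class together held 0.273% ± 0.0857 of gene counts in TAE libraries and 0.74% ± 0.15 in frozen libraries (SD, n = 12 each; exact sign-flip permutation test, adjusted p = 0.000879). Gm26917, with a mean of 1498 CPM in TAE libraries and 7579 CPM in frozen libraries, made up most of that sum on both sides, so the sum largely repeats this 1 locus. Mir6236 (2.08), a microRNA entry, was also higher, with 61 to 274 CPM in TAE libraries and 12.1 to 58.2 CPM in frozen libraries.

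Immediate early genes, which encode unstable regulators induced within minutes, were higher in 26 of 34 and lower in 1, with a median of 0.55. Zfp36l1, which binds AU-rich elements and speeds mRNA decay, had 142, 173 and 228 CPM in TAE libraries, against 62.8, 77.6 and 109 CPM in frozen libraries (log2 fold change 1.15 ± 0.039 SE, edgeR adjusted p = 1.6e-16). Its relative Zfp36 (0.72) and Mcl1 (0.57), a survival factor of the BCL2 family, were also higher. Sgk1 (-0.07, edgeR adjusted p = 0.33) and Gadd45g (-0.13, edgeR adjusted p = 0.22) did not pass. Of 15 snoRNA host genes 9 were higher and none lower (median 0.64), among them Snhg3 (1.45), Zfas1 (0.79) and Gas5 (0.64), while Snhg17 (-0.04, edgeR adjusted p = 0.78) and Snhg14 (0.11, edgeR adjusted p = 0.44) did not pass.

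Nuclear long noncoding RNAs were mixed, with 6 of 14 higher and 2 lower (median 0.20). Jpx (1.09), an activator of Xist in females, 2900097C17Rik (0.98) and Tug1 (0.54) were higher. Malat1, the abundant RNA of nuclear speckles, had 5799, 9486 and 15485 CPM in TAE libraries and 7903, 9996 and 10937 CPM in frozen libraries, with 6 of 12 mice higher (-0.06, edgeR adjusted p = 0.56). Neat1, the scaffold of paraspeckles, did not pass (-0.20, edgeR adjusted p = 0.24). Across annotation classes, the median log2 fold change was 0.58 for 681 loci of the class TEC, whose transcripts await experimental testing, and 0.63 for 118 sense intronic RNAs. These 2 classes held 0.427% ± 0.126 of gene counts in TAE libraries and 0.232% ± 0.0237 in frozen libraries (SD, n = 12 each), higher in 12 of 12 mice.

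Among protein-coding genes the annotated layout of the transcript went along with the direction. The length 3′ of the coding sequence in the longest coding transcript had a Spearman rho of 0.51 with the log2 fold change across 12451 genes, and the coding share of the transcript one of -0.52. Both are descriptions across genes that share the same libraries. In single mice the rho with length ran from 0.38 to 0.48 and that with coding share from -0.51 to -0.29. Genes with at most 250 bases there had a median of -0.42, with 66.5% called lower and 7.61% called higher. Genes with over 4000 bases had a median of 0.32, with 7.64% called lower and 71.5% called higher. Genes were also divided into 4 classes of mean level and 3 of this length. In the highest level class the medians were 0.25 for the longest regions and -0.50 for the shortest, and in the lowest level class 0.22 and -0.23. Exonic length had a rho of 0.23, exon number one of -0.19, exonic GC content one of -0.09 and mean level one of 0.00. The 112 genes with a mean above 1000 CPM nevertheless had a median of -0.54, with 76.8% called lower. Over unheated formalin the strongest rho among these properties was that of exonic GC content, 0.31. Coding share had 0.28 there and the length 3′ of the coding sequence -0.21.

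Single genes and gene groups went with this order only in part. Dynll2, a dynein light chain with 1911 bases 3′ of its coding sequence, had 172, 198 and 241 CPM in TAE libraries, against 49.5, 60.8 and 69.8 CPM in frozen libraries, and its log2 fold change of 1.74 ± 0.045 (SE, edgeR adjusted p = 5.8e-18) was the largest rise of a nuclear protein-coding gene by the naming rule. Vamp2 (1.41), a vesicle fusion protein with 1721 such bases, was also higher. Both lie in the class of 1000 to 2000 bases, whose median log2 fold change was 0.04. The median over plasma protein genes was 190 bases, over nuclear OXPHOS genes 190, over hepatocyte markers 256 and over immediate early genes 1178, against 1162 over all protein-coding genes tested. Other groups did not go with the order by length. Sterol and lipid synthesis genes had a median of 1603 bases, endothelial markers 1137 and stellate and fibroblast markers 1114, although their median log2 fold changes were below 0, and immediate early genes stood higher at nearly the median length of all genes. By coding share these groups went with the order in direction only. Their median shares were 55.9%, 58.1%, 56.5% and 38.9% as named, against 49.9% over all protein-coding genes tested. Genes with a coding share of 40 to 60% had a median log2 fold change of -0.01. The sterol and lipid, endothelial, and stellate and fibroblast medians were lower than that, at -0.17, -0.35 and -0.33. Immediate early genes, at 0.55, stood above the 0.21 of the class of 20 to 40%. Nuclear OXPHOS genes, at 48.3%, were lower and did not go with the order by coding share. Circadian clock genes, at 54.4% with a median log2 fold change of 0.16, did not go with it either. The 7 mitochondrial mRNAs, with medians of 99.8% and 3 bases, stood higher (median 1.21) against both orders. Ribosomal protein genes had a median of 102 bases. Over all genes tested 36% were higher and 31.4% lower, and of 77 ribosomal protein genes 29 were higher and 13 lower (median 0.08). In phenobarbital mice alone 15 were higher and 13 lower (median -0.04), and in control mice alone 46 and 8 (median 0.21), a difference between treatments that was not tested for the group. Rpl23 (0.73), Rps27a (0.71) and Rps16 (0.68) were higher, and Rpl4 (0.09, edgeR adjusted p = 0.19) and Rplp0 (0.01, edgeR adjusted p = 0.87) did not pass. Several ribosomal protein genes have processed pseudogenes that can share their reads. With library totals 58 of the group were higher and 3 lower.

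**Figure D4:**
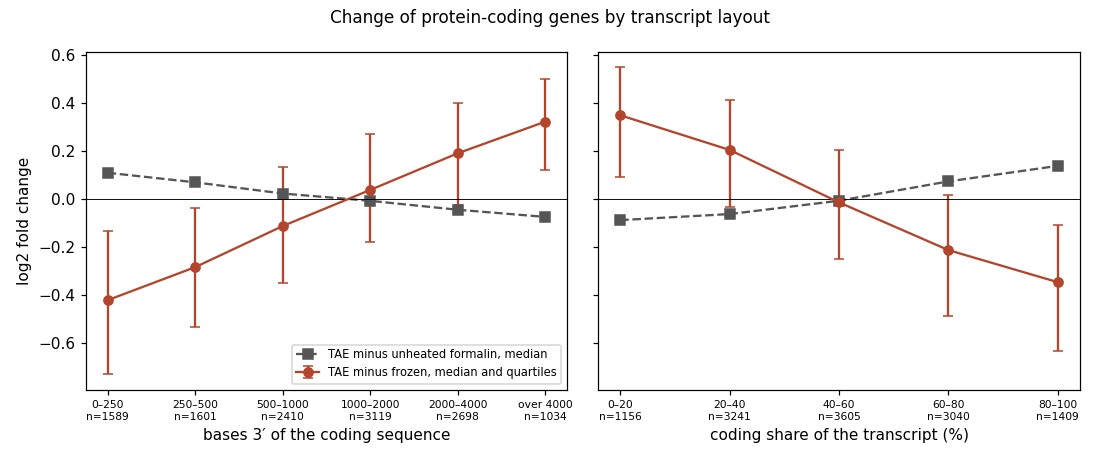
Median log2 fold change of protein-coding genes by the number of bases 3′ of the coding sequence (left) and by the coding share of the transcript (right), with quartiles as bars for TAE over frozen libraries and the median alone for TAE over unheated formalin libraries. Over frozen, the medians run from -0.42 to 0.32 with length and from 0.35 to -0.35 with coding share, and over unheated formalin they run the other way between 0.11 and -0.07 and between -0.09 and 0.14.

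Reference genes used to normalise PCR did not share a direction. Of 18, 10 were lower and 3 higher, with a median of -0.19 that turned to 0.04 with library totals. Gapdh, the glycolytic enzyme, had 70.7, 101 and 118 CPM in TAE libraries, against 189, 234 and 258 CPM in frozen libraries (log2 fold change -1.18 ± 0.043 SE, edgeR adjusted p = 4.6e-16). Ppia (-0.98) and Actb (-0.30) were lower too, and Ywhaz (0.68) was higher. The call of Actb is lost with library totals (-0.07). Eef1a1 (-0.05, edgeR adjusted p = 0.57), Eef2 (-0.13, edgeR adjusted p = 0.061) and Hprt (0.00, edgeR adjusted p = 0.99) did not pass. Gapdh and Ppia have many processed copies, so part of their reads may be counted elsewhere.

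Target genes of CAR were lower in TAE libraries on both treatments. Of 32 targets of CAR, 31 were lower and 1 higher, with a median of -0.73. Cyp3a11, a cytochrome P450 of drug oxidation, averaged 5273 ± 1381 CPM in TAE libraries and 8423 ± 2739 CPM in frozen libraries of phenobarbital mice, and 79.2 ± 48.1 CPM in TAE libraries and 141 ± 82.5 CPM in frozen libraries of control mice (SD, n = 6 each). Ephx1, microsomal epoxide hydrolase, averaged 169 ± 31.3 CPM in TAE and 381 ± 64.9 CPM in frozen libraries of phenobarbital mice, and 45.1 ± 10.6 CPM in TAE and 106 ± 25.2 CPM in frozen libraries of controls (SD, n = 6 each). Over all 12 mice the log2 fold changes of TAE over frozen were -0.74 for Cyp3a11, -1.21 for Ephx1, -1.42 for the carboxylesterase Ces2a, -1.20 for the glucuronosyltransferase Ugt2b36 and -0.72 for Cyp2b10. Cyp2b10, the classical phenobarbital-induced P450, averaged 1330 ± 274 CPM in TAE and 2200 ± 416 CPM in frozen libraries of phenobarbital mice and stayed under 0.5 CPM in controls of both sets, so its fold rests on the phenobarbital mice.

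No gene passed the test of whether the TAE to frozen difference differed between phenobarbital and control mice, 0 of 14603 (0%) by edgeR and likewise by DESeq2. At an unadjusted edgeR p under 0.05 there were 614 genes, or 4.2% of those tested. For Ephx1 the difference of the log2 fold changes, phenobarbital minus control, was 0.06 with an approximate 95% interval from -0.08 to 0.19, and for Cyp3a11 it was 0.18 with one from 0.01 to 0.34. These intervals rest on a normal approximation, which is narrow for so few mice, so whether that of Cyp3a11 excludes 0 is uncertain. The edgeR adjusted p was 0.95 for Ephx1 and 0.94 for Cyp3a11. The interval of Cyp2b10, from -1.44 to 0.47, is wide because controls had almost no counts.

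**Figure D5:**
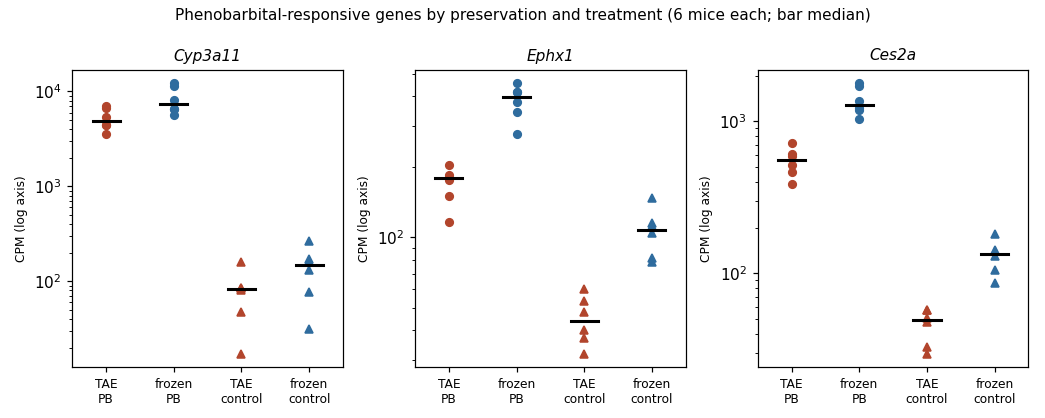
CPM (log axis) of 3 CAR targets in TAE and frozen libraries of phenobarbital mice (circles) and of control mice (triangles), 6 mice each, with the median as a bar. In both treatments the TAE median lies below the frozen one, and all phenobarbital libraries lie above all control libraries of the same preservation.

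Against unheated formalin, fewer genes were called. Of 14101 genes tested 2255 were higher (16%) and 2339 lower (16.6%). Without the animal block these were 1018 and 1248. The median over all genes was 0.02, and 0.20 with library totals, under which 6036 were higher and 726 lower. Most snoRNAs, small Cajal body RNAs, small structured RNAs and mitochondrial RNAs, which stood above frozen liver, stood below unheated formalin. Of 31 listed snoRNAs and small Cajal body RNAs 26 were lower and none higher (median -1.57), of 10 small structured RNAs 9 were lower (median -0.97), of 7 mitochondrial mRNAs 6 (median -0.90) and of 9 mitochondrial tRNAs 8 (median -1.40). With library totals these medians were -1.39, -0.79, -0.72 and -1.22 in the same order. Scarna2 (0.11, edgeR adjusted p = 0.39) and Rpph1 (0.00, edgeR adjusted p = 0.99) did not pass, and the microRNA class had a median of 0.49 over unheated formalin and of 0.74 over frozen liver. Both comparisons share the TAE libraries, so the values are given side by side.

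Rny3 had 17.2, 57.2 and 145 CPM in TAE libraries, against 85.3, 234 and 932 CPM in unheated formalin, with frozen liver at a median of 18.5 CPM. Its log2 fold change over unheated formalin was -2.39 (edgeR adjusted p = 1.6e-13), and Snord13 had -1.86, Snora21 -1.28, Rnu11 -1.79 and mt-Nd2 -1.11. Snord17 was low in both formalin states, with medians of 56 CPM in TAE libraries and 101 CPM in unheated formalin. Snora41 (-2.88), Snord16a (-2.54), Snora28 (-2.29) and mt-Tt, with a median of 4.26 CPM in TAE libraries and 15.7 CPM in unheated formalin, were, with Rnu11, the 5 largest falls under the naming rule. Over frozen the same 4 were higher, by 0.95, 1.82, 1.15 and 1.15 on the log2 scale.

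The 5 largest rises over unheated formalin under the naming rule were those of Myl6 (0.76), a myosin light chain, Cdk10 (0.72), a cyclin-dependent kinase, Sem1 (0.70), a proteasome subunit, Il11ra1 (0.66), the interleukin 11 receptor, and Brf1 (0.59), an initiation factor of RNA polymerase III. Sem1 had 29.2, 34.6 and 39.4 CPM in TAE libraries, against 11.2, 22.4 and 26.6 CPM in unheated formalin, and the frozen median was 42.4 CPM. Over frozen, Myl6 was lower by a log2 fold change of -0.94, Cdk10 by -0.25 and Sem1 by -0.28, Il11ra1 did not pass (0.07, edgeR adjusted p = 0.21), and Brf1 was higher by 0.15 (edgeR adjusted p = 0.025). The call of Brf1 is lost without the block (0.15), with DESeq2 (0.13), in control mice alone (0.07), with no filter (0.13), with the deposited log2 values (0.11), and with mouse 20B (0.13), 20D (0.11), 75C (0.11) or 80B (0.13) left out. Cdk10 (-0.02) and Sem1 (-0.05) lose theirs over frozen with library totals. Genes far from frozen liver could be close to unheated formalin, as 3 examples show that were chosen after their values were seen. Dynll2 had medians of 198 CPM in TAE libraries and 194 CPM in unheated formalin (0.02, edgeR adjusted p = 0.76), Apoe 2962 and 2764 CPM (0.04, edgeR adjusted p = 0.66) and Hpd 607 and 600 CPM (-0.01, edgeR adjusted p = 0.93). Over all genes tested 16.6% were lower there and 16% higher. Of 53 plasma protein genes 28 were lower and 4 higher (median -0.16, and 0.02 with library totals). Of 16 hepatocyte markers 7 were lower and 1 higher (median -0.08, and 0.10 with library totals). Endothelial markers had 14 of 20 lower, stellate and fibroblast markers 12 of 20 and Kupffer cell markers 10 of 18, with none higher. Their medians were -0.43, -0.29 and -0.30, and with library totals -0.25, -0.11 and -0.12. The unheated library of control mouse 8A had 1264563 counts, and thinning all libraries to that depth left 61 higher and 225 lower calls, against 1843 and 2019 without that mouse at 6257294 counts.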

How the data were processed

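Deposited counts of reads per Ensembl gene, whole numbers and not normalized by the authors, were the basis of every test. Libraries were strand-specific total RNA depleted of ribosomal RNA, per the labels' protocols. The submitters' processing notes name STAR 2.5, CASAVA and edgeR, and mm10 and GRCm38 as builds, with no roles. How reads were assigned to genes and strands is not given in the sources used here. Overlapping and antisense genes are therefore uncertain. A second deposited table holds log2 values of counts plus 0.05, scaled per library by the authors as its numbers show, and served 1 alternative.

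Of 47373 genes 46954 matched GENCODE M21, and 92 spike-in lines stayed out. edgeR 4.0.16 in R 4.3.3 (quasi-likelihood test, TMM, low-count filter with a minimum of 10 counts, Benjamini-Hochberg at 0.05) was run with the animal as a block. Same-animal deviations correlated above 0.1 in 12 of 12 pairs (0.371 to 0.723). Standard errors were derived from the F statistic of each gene. Shares and detected genes used exact two-sided sign-flip permutation tests over 12 mice, adjusted over 9 classes. Levels are TMM-scaled CPM, and counts per library bound their precision by counting error only.

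Named genes were the 12 largest rises and falls with a mean of at least 5 CPM, non-overlapping ranges and an own symbol, up to 3 called and 2 uncalled members of lists described gene by gene, fixed genes, and the 5 largest rises and falls over unheated formalin. 1 gene of that rule is not reported here. Members and lists were chosen with earlier results of these data known. The coding layout, and thinning without the mouse of the shallowest library, were added after seeing the data.

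Alternatives were no block, DESeq2 1.42.0, limma 3.58.1 voom, RLE, library totals, no mitochondrial genes, no filter, thinning, each treatment alone, each animal left out, and limma on the log2 values.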

Additional observations from a re-analysis of the deposited data

Results flagged for a closer look

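Within the 6 phenobarbital and the 6 control mice, 12 of 258 sets of TAE minus frozen differences held 1 mouse far from the other 5, and chance flags about 1 in 20. Of the log2 differences in phenobarbital mice, Krt8 was -0.967 in mouse 20D, against -1.47 for the next, and Rpl4 was -0.448 in mouse 18D, against -0.0346. In control mice, mouse 90C had the smallest falls of Uqcrc1 (-0.677, next -1.08), Ass1 (-0.946, next -1.18) and Fbp1 (-0.885, next -1.20). Mouse 21C had the highest Cox8a (0.417, next 0.118) and the lowest Clec4f (-1.63, next -1.26). Rps27a was 0.214 in mouse 8C (next 0.774), and mt-Tt 2.87 in mouse 8A (next 1.51).

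Control mouse 82B stood apart in 3 genes of red blood cells. Hbb-bs, a beta globin, was 2.04 on the log2 scale (next 0.367), Hba-a1, an alpha globin, 1.83 (next -0.0716) and Slc4a1, the anion exchanger of the red cell membrane, 1.84 (next 0.856). Over all 12 mice Hbb-bs (0.00, edgeR adjusted p = 0.99) and Hba-a1 (-0.18, edgeR adjusted p = 0.36) did not pass. Slc4a1 (0.60, edgeR adjusted p = 0.014) did, but not without mouse 82B (0.41) or 75C (0.51), without the block (0.71) or in phenobarbital mice alone (0.11). Without mouse 82B, Hba-a1 was called lower (-0.39). Alas2, the first enzyme of haem synthesis in red cells, was lower (-0.47, edgeR adjusted p = 1.4e-06). The TAE library of mouse 82B also held 96 counts on spike-in controls that take part in no comparison, against 0 in every frozen library. Whether the globin and spike-in counts are linked was not tested.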

How the results depend on the processing

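With library totals 8089 genes were higher and 2475 lower over frozen, 793 and 144 of them by at least 2-fold, and over unheated formalin 6036 and 726 (181 higher by at least 2-fold). Without a filter 583 were higher by at least 2-fold. Of the 9833 calls over frozen, 7726 kept their call and direction with library totals and 146 were called the opposite way, while between 7372 (phenobarbital mice alone) and 9791 kept both under the other alternatives. No gene was called in the interaction under any setting tried. Without the replicate block over unheated formalin, 1018 were higher (55 by at least 2-fold) and 1248 lower, and thinning left 61 and 225 (1 and 37 by at least 2-fold).

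In phenobarbital mice alone, the share differences were 3.86 percentage points for mitochondrial mRNA, 0.00576 for mitochondrial tRNA, -0.00846 for histones and 0.172 for ribosomal proteins. They were -0.448 for rRNA loci, -8.60 for plasma proteins and -1.43 for the 10 most abundant genes (-1.85 in control mice alone). Each kept the sign it had over all mice. No class passed in phenobarbital mice, with 0.0562 as the smallest adjusted p of the exact sign-flip permutation test. With 6 mice that test has few possible outcomes, so its smallest unadjusted p is larger than over all mice. After adjustment a class could pass only if most classes reached that smallest value together. The lack of passes therefore does not decide whether the differences hold in phenobarbital mice. The difference in share of the snoRNA list passed at 0.0114 once mitochondrial genes left the total, and ranged from 0.00558 to 0.0104 with 1 mouse left out.

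No call of a named gene over frozen turned round. Among named genes that had missed the threshold, the log2 fold changes that follow changed sign. Of these, Cox8a, Sgk1, Sel1l, Eef1a1, Glul, Ptprb and Cybb were called higher with library totals, and in control mice alone Cox8a was called higher and Slc40a1 lower. Without the block, Cox8a 0.013, Hbb-bs 0.28, Hba-a1 0.052. With RLE, Rplp0 -0.0025, Slc40a1 -0.0087, Hprt -0.016. With library totals, Snora73b 0.18, Rmrp 0.048, Hist1h1c 0.12, Hist2h4 0.077, Malat1 0.17, Neat1 0.036, Snhg17 0.19, Uqcrh 0.12, Cox8a 0.22, Sgk1 0.17, Gadd45g 0.10, Sel1l 0.21, Eef1a1 0.18, Eef2 0.10, Glul 0.21, Ptprb 0.22, Cybb 0.13, Hbb-bs 0.22, Hba-a1 0.048. Without mitochondrially encoded genes, Hprt -0.0019. With no filter, Slc40a1 -0.0044, Hprt -0.012. In phenobarbital mice, Neat1 0.044, Snhg17 0.079, Rpl4 -0.040, Rplp0 -0.12, F9 -0.031, Sgk1 0.029, Xbp1 -0.013, Ptprb 0.072, Hprt -0.087. In control mice, Snhg14 -0.16, Cox8a 0.12, Sel1l 0.020, Eef1a1 0.093, Glul 0.0090, Ppargc1a -0.0045, Slc40a1 -0.14, Hbb-bs 0.26, Hba-a1 0.020. With DESeq2, Rplp0 -0.0036, Slc40a1 -0.0087, Hprt -0.016. With limma voom, Cox8a 0.061, Ptprb 0.010, Hbb-bs 0.15. With the deposited log2 values, Rplp0 -0.032, F9 -0.016, Xbp1 -0.00056, Slc40a1 -0.036, Hprt -0.040. With 1 mouse left out in turn, the ranges were Cox8a -0.080 to 0.074, Eef1a1 -0.13 to 0.010, F9 -0.018 to 0.035, Glul -0.087 to 0.0078, Hbb-bs -0.19 to 0.15, Hprt -0.053 to 0.020, Ptprb -0.073 to 0.035, Rplp0 -0.059 to 0.079, Slc40a1 -0.055 to 0.028, Snhg14 -0.025 to 0.16, Snhg17 -0.13 to 0.027, Xbp1 -0.0042 to 0.058. Other genes that missed the threshold passed it with their sign kept. With library totals these were Snora33, Snhg14, Rpl4, Rplp0, F9, Xbp1, Ppargc1a, Dnase1l3, Slc40a1, Hprt and Il11ra1, in control mice Rmrp, Neat1, Rpl4, Rplp0 and Sgk1, and in phenobarbital mice Eef2, Ppargc1a and Dnase1l3. Rmrp, Hist1h1c, Hist2h4, Neat1, Uqcrh, Eef2, Cybb, Rpl4 and Hba-a1 each passed under at least 1 of RLE, no filter, thinning, DESeq2, limma voom and the deposited log2 values. Some also passed without 1 mouse. Without 21C these were Rmrp -0.22, Hist1h1c -0.16, Hist2h4 -0.21, Uqcrh -0.15 and Eef2 -0.20, and without 75C Rmrp -0.25, Hist1h1c -0.17, Sgk1 -0.14 and Cybb -0.15. Without 80B they were Rmrp -0.25, Hist1h1c -0.14, Uqcrh -0.15, Eef2 -0.15 and Ppargc1a 0.14, without 90C Eef2 -0.15 and Dnase1l3 0.14, and without 18D Neat1 -0.32 and Rpl4 0.14. Without 18B Rmrp passed at -0.20, and without 8D or 20B Eef2 at -0.16 and -0.15.

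Depth limits low genes such as Cyp2b10 in control mice, and TAE libraries are the shallower ones. The causes of these shifts were not tested.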

Other observations

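Lists not described above gave the following counts over frozen liver. Of 26 SR proteins and splicing factors 11 were higher and 6 lower (median log2 fold change 0.08), and of 18 circadian clock genes 9 were higher and 4 lower (median 0.16). Of 13 heat shock genes 2 were higher and 8 lower (median -0.32). Few markers of bile duct cells and of lymphocytes and granulocytes passed the count filter. Of 5 bile duct markers tested out of 11, 2 were higher and 2 lower (median -0.19, which turned to 0.04 with library totals), and of 5 lymphocyte and granulocyte markers tested out of 17, none was higher and 3 were lower. Of 8 red blood cell genes 1 was higher and 1 lower, with a median of 0.05 that turned to -0.03 with DESeq2 and to -0.23 in phenobarbital mice alone. The percentages over all genes tested were 36% higher and 31.4% lower, and with library totals the splicing list had 19 higher and 1 lower.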
